A study of Homo sapiens with 9 samples.

Results

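The genes described here encode the caveolins (CAV1, CAV2 and CAV3), the cavins of the caveola coat (CAVIN1, CAVIN2 and CAVIN3) and 2 proteins that shape the neck of a caveola (EHD2 and PACSIN2). They were taken by gene symbol, and all 8 were found among the 28216 genes of the deposited count table. RNA was sequenced from PC3 and LNCaP cells, established lines that were each grown from a metastasis of prostate cancer, in 3 groups of 3 libraries. PC3 cells were untreated and kept in F12K medium with serum. LNCaP cells (clone FCG) were moved to phenol red-free RPMI with charcoal-stripped serum, which is low in steroids, and then treated for 48 h with 10 nM dihydrotestosterone (DHT) or with vehicle (0.01% ethanol). The labels name DHT, whereas the main text of the study names the synthetic androgen R1881. All groups are labelled as wild-type epithelial cells. Each type of cell is 1 line, and PC3 and LNCaP cells also differed in medium, serum and treatment, so that an effect of the line and an effect of culture cannot be told apart. The labels do not say whether replicates came from separate cultures, and the p-values measure only the spread between these libraries.

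Caveolae are small flask-shaped pits of the plasma membrane that are rich in cholesterol. Caveolin-1 is inserted in the inner leaflet and forms oligomers, caveolin-2 joins them, and caveolin-3 takes the place of caveolin-1 in muscle. Cavins are recruited from the cytosol to form an outer coat, and cavin-1 is required for caveolae: caveolin-1 without cavin-1 stays in the membrane without forming the pit. EHD2 is an ATPase that forms rings at the neck and holds caveolae at the surface, and PACSIN2 is an F-BAR protein that bends the membrane there. PC3 cells are widely used as cells with caveolin-1 and without cavin-1, and LNCaP cells as androgen-responsive cells with little caveolin-1.

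CAV1 lies on chromosome 7 of GRCh38 from 116524994 to 116561179 on the plus strand (GENCODE 44), and CAV2 lies upstream of it on the same strand from 116287380 to 116508541, 16453 bases away. EHD2 lies on chromosome 19 from 47713422 to 47743134 on the plus strand. PACSIN2 lies on chromosome 22 from 42835412 to 43015149 on the minus strand. CAVIN1 lies on chromosome 17 from 42402449 to 42423256 on the minus strand. The remaining members are CAV3 on chromosome 3 (8733802 to 8841808, plus strand), CAVIN2 on chromosome 2 (191834310 to 191847088, minus strand) and CAVIN3 on chromosome 11 (6318946 to 6320532, minus strand).

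The 250 bases before the transcription start are shown for CAV1, CAV2 and EHD2, which had their highest levels in PC3 cells, and for PACSIN2, which had its highest level in LNCaP cells. RefSeq windows on GRCh38.p14 matched 6 of the 8 members. They lie before the start of the MANE Select transcript, which for CAV1 and CAV2 is inside the gene span given above. The windows of the genes shown are chr7:116524786-116525035 for CAV1, chr7:116499488-116499737 for CAV2, chr19:47713172-47713421 for EHD2 and chr22:43015150-43015399 on the minus strand for PACSIN2. Capitals mark matches on either strand to the SP1 motif GGGCGG and, in CAV1, to the androgen receptor hexamer AGAACA.
CAV1: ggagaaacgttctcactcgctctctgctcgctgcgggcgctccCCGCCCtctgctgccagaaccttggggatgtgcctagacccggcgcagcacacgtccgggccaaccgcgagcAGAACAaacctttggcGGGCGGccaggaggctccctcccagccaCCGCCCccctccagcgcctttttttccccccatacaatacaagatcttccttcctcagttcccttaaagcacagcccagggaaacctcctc
CAV2: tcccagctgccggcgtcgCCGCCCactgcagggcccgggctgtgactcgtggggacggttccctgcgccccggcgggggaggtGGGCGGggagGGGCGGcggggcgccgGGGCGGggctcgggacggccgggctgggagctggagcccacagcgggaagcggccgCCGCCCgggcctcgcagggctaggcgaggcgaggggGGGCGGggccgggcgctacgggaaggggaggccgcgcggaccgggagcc
EHD2: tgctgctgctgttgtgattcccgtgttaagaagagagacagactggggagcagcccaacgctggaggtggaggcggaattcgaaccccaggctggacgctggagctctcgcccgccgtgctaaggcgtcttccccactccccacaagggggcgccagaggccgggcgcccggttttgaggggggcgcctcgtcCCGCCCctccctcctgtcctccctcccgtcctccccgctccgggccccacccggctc
PACSIN2: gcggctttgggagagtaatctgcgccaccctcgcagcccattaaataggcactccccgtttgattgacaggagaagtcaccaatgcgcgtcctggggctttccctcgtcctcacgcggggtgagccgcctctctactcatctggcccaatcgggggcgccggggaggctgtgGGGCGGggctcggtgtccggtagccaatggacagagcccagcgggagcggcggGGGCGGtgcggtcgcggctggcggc
All 4 windows held the SP1 motif, with 3 matches in CAV1, 6 in CAV2, 1 in EHD2 and 2 in PACSIN2, against 42.6% of 35116 promoter windows of the same length that held at least 1 match. Windows of CAV1, CAV2, EHD2 and PACSIN2 held 16, 35, 20 and 24 CpG dinucleotides, where the median of all windows was 11. The windows of CAV3 and CAVIN2, which are not shown, held 0 SP1 matches each and 5 and 4 CpG dinucleotides. AGAACA was found in CAV1 only among the 6 members, 135 bases before the start, and in 12.4% of all windows. None of these 6 members had the AP-1 motif TGANTCA in its window, which 6.57% of windows held. GGAATG, the TEAD motif, was found in CAVIN2 only among them and in 11.9% of windows. The motifs do not overlap each other in these windows, and a match is a string of letters and not a measured site.

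Libraries held between 17397706 and 25640325 counts on genes, and where a gene had no count its level could still be 0.118 to 0.165 CPM (counts relative to the library total, scaled by TMM factors), the worth of 3 counts. This limit and the intervals of count ratios below cover counting error only. KLK3, an androgen-regulated gene that encodes prostate-specific antigen, was at 4250 ± 261 CPM (SD, n = 3) with DHT, 574 ± 111 (SD, n = 3) with vehicle and 0.319 ± 0.408 (SD, n = 3) in PC3 cells. The summed level of 5 luminal prostate genes was 27.3 to 42.6 CPM in PC3 libraries, 9119 to 9906 with DHT and 2230 to 2651 with vehicle. The basal markers KRT5, KRT14 and TP63 summed to at most 1.48 CPM, and 4 muscle genes to at most 0.592 CPM, in every library. Of 4 endothelial genes, which summed to 6.02 to 8.26 CPM in PC3 libraries, 6.67 to 7.95 with DHT and 16.4 to 18.4 with vehicle, KDR (4.17 ± 1.15 CPM) and PECAM1 (2.68 ± 0.765 CPM; SD, n = 3) were found in PC3 cells, VWF in LNCaP cells (7.50 ± 0.753 CPM with DHT and 17.0 ± 1.19 with vehicle; SD, n = 3), and CDH5 was at 0 in every library. The 5 fibroblast genes summed to 34.0 to 41.8, 12.4 to 15.4 and 22.1 to 25.6 CPM in the same order, mostly from COL1A1, with DCN at no more than 2 counts in a library, and 3 adipocyte genes summed to at most 0.605 CPM. The part of these genes' cells in the caveolin levels was not tested. In whole-culture RNA, fewer cells that express a gene and less RNA per cell cannot be told apart.

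CAV1, which encodes the main structural protein of caveolae, was abundant in PC3 cells and nearly absent from LNCaP cells. PC3 libraries held 12398, 13288 and 8947 counts, which are 488, 578 and 353 CPM. LNCaP libraries held 82, 18 and 9 counts with DHT and 29, 0 and 7 with vehicle. The PC3 libraries were therefore far above every LNCaP library, whereas the LNCaP groups overlapped each other. Mean levels were 473 ± 113 CPM (SD, n = 3) in PC3 cells, 1.67 ± 1.75 (SD, n = 3) with DHT and 0.625 ± 0.795 (SD, n = 3) with vehicle, and CAV1 ranked 266 among all genes of PC3 cells by CPM. The log2 fold change of PC3 against DHT-treated LNCaP cells was 8.09 (SE 0.54, adjusted p = 2.6e-06, edgeR). Against vehicle-treated cells it was 9.56 (SE 0.54, adjusted p = 1.29e-06). The low counts in LNCaP cells set these sizes: the log2 fold change was 9.47 without DHT replicate 1 and 11.32 without vehicle replicate 1. CAV1 entered the test, which requires more than 3 CPM in 3 libraries, through PC3 cells alone, so its p-values only describe it.

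**Figure D1:**
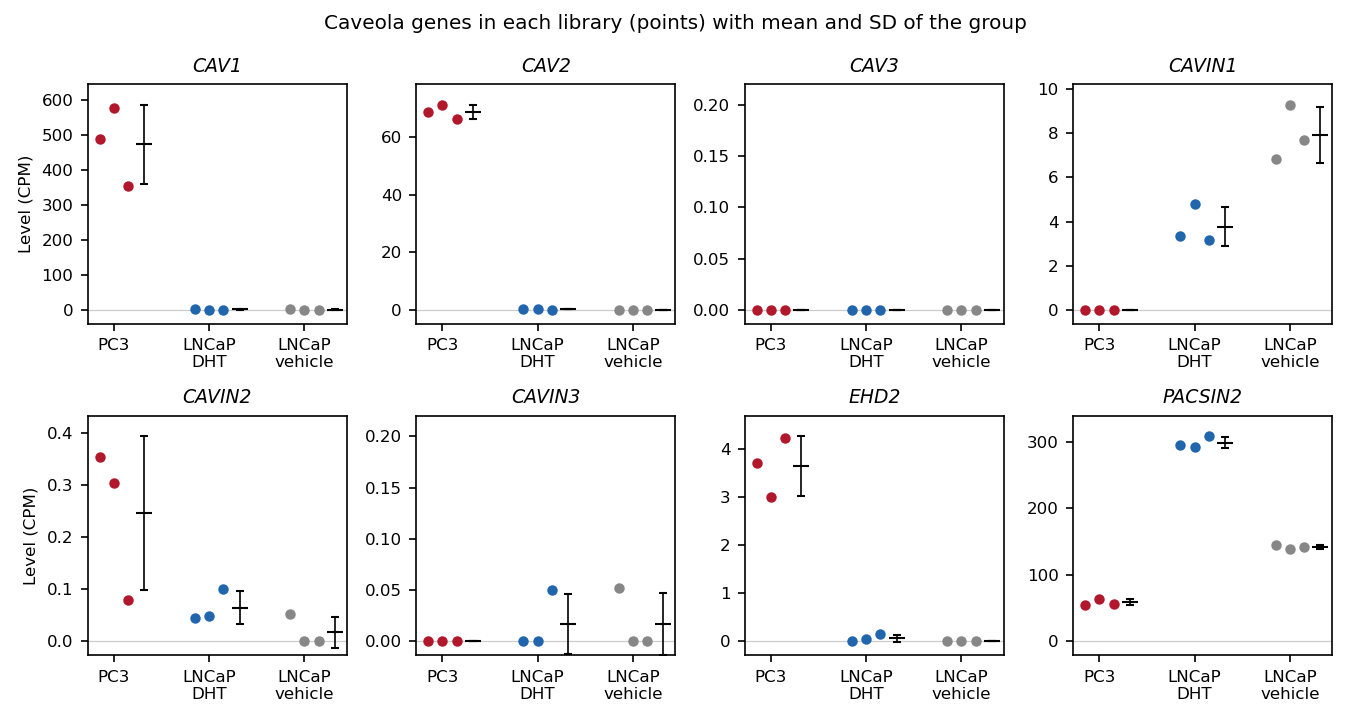
Level in CPM (linear axis, a scale of its own for each gene) of the 8 caveola genes in each of 9 libraries (points, replicates 1 to 3 from left to right), with mean and SD of each group (bars, n = 3). CAV1, CAV2 and EHD2 were high in PC3 libraries, CAVIN1 was at 0 there, and PACSIN2 was highest with DHT. CAV3 and CAVIN3 had at most 1 count in a library.

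CAV2, the partner of caveolin-1 in its oligomers, followed the same order at a lower level. PC3 libraries held 1741, 1635 and 1676 counts, LNCaP libraries 9, 9 and 3 with DHT and 3, 2 and 2 with vehicle. Every PC3 library was thus above every LNCaP library, and the LNCaP groups met at 3 counts. Means were 68.6 ± 2.44 CPM (SD, n = 3) in PC3 cells, 0.333 ± 0.159 (SD, n = 3) with DHT and 0.123 ± 0.0301 (SD, n = 3) with vehicle. The log2 fold change of PC3 cells was 7.65 against DHT (SE 0.20, adjusted p = 2.98e-08 from edgeR) and 9.08 against vehicle (SE 0.14, adjusted p = 9.18e-09 from edgeR). CAV2 too entered the test through PC3 cells alone, so its p-values only describe it. Per kb of merged exons, CAV1 stood at 122 CPM and CAV2 at 10.4 CPM in PC3 cells, a ratio of 11.7 that was 8.29 with the length of the MANE Select transcript.

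The 2 caveolins differed in their spread among PC3 replicates. CAV1 had a coefficient of variation of 23.9% and CAV2 of 3.56%, where the median over 5050 genes of at least 50 CPM in PC3 cells was 7.81%. Of these genes, 93.3% varied less than CAV1 and 15.9% less than CAV2. The number of CAV1 counts per CAV2 count was accordingly 7.12, 8.13 and 5.34 in PC3 replicates 1 to 3. PC3 replicate 3 was low in CAV1 and close to the others in CAV2. With 3 libraries, the source of this spread was not tested.

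The caveolin levels in LNCaP libraries were below 1% of the PC3 mean, and they were set beside those of 6 other genes that are high in PC3 cells (VIM, CD44, EPHA2, ITGA3, FZD8 and ANTXR2, all 6 above 3 counts in every LNCaP library). CAV1 stood at 0.776, 0.188 and 0.0959% of its PC3 mean in DHT replicates 1 to 3, and at 0.321, 0 and 0.0752% in vehicle replicates 1 to 3. For CAV2, the shares were 0.587, 0.648 and 0.220% with DHT and 0.229, 0.160 and 0.148% with vehicle. The summed level of the 6 genes was 0.988, 0.623 and 0.528% with DHT and 0.598, 0.442 and 0.460% with vehicle, that is 26.8 to 50.2 CPM and 22.4 to 30.4 CPM, against 4413 to 5931 CPM in PC3 cells. DHT replicate 1 was highest for CAV1 and for this sum, and vehicle replicate 1 was highest among the vehicle libraries for CAV1, CAV2 and the sum. The part of such reads in the caveolin levels of LNCaP cells was not tested.

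**Figure D2:**
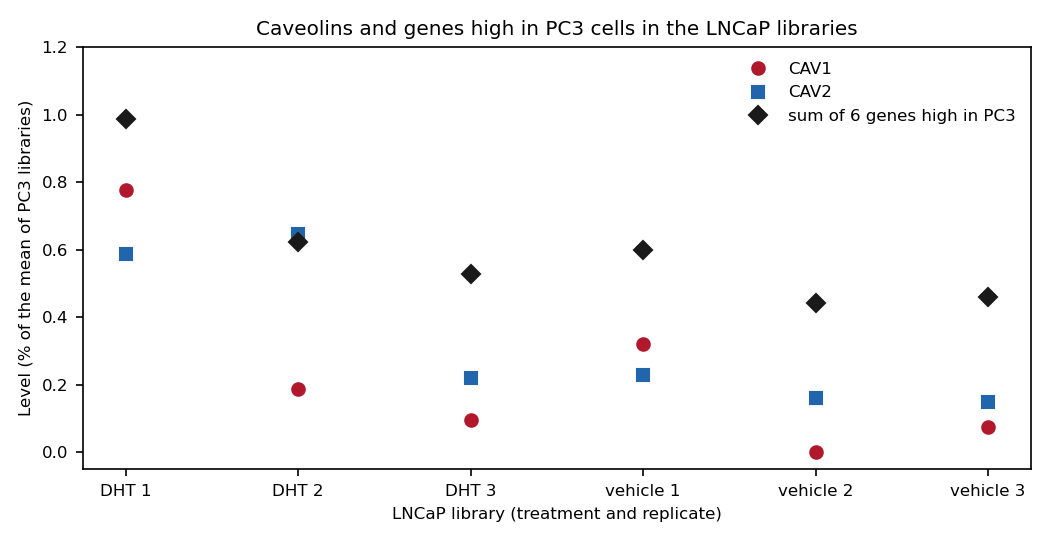
Level of CAV1, of CAV2 and of the sum of 6 other genes high in PC3 cells, in each LNCaP library (replicates 1 to 3 of DHT and of vehicle), as a percentage of the mean of the 3 PC3 libraries. All values were below 1%, and DHT replicate 1 had the highest share for CAV1 (0.776%) and for the sum (0.988%).

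Neither caveolin exceeded 3 CPM in 3 LNCaP libraries, so that the response to DHT was outside the main test and is given by counts and by alternative fits. Summed over 3 libraries, CAV1 had 109 counts with DHT and 36 with vehicle, a ratio of 2.76 after scaling (exact 95% interval 1.88 to 4.15), of which 82 and 29 counts came from replicate 1 of each group. The ratio for CAV2 was 2.74 (exact 95% interval 1.12 to 7.63). These intervals compare the pooled libraries only. Same-numbered LNCaP libraries were taken as pairs, which is an assumption. Their deviations correlated with 0.18 to 0.23, but differently numbered PC3 and DHT libraries also reached 0.18. Within each of the 3 pairs, CAV1 was higher with DHT (3.67 against 1.52, 0.888 against 0 and 0.454 against 0.355 CPM), and so was CAV2 (0.403 against 0.157, 0.444 against 0.110 and 0.151 against 0.102 CPM). The sum of the 6 genes high in PC3 cells was also higher with DHT in each of the 3 pairs, but its genes did not all move together. VIM, CD44 and FZD8 were higher with DHT in every pair. EPHA2 was lower with DHT in pairs 2 and 3 (5.58 against 6.59 and 5.39 against 6.91 CPM), and ITGA3 and ANTXR2 were lower in pair 3. Without the filter on low counts the adjusted p was 0.0553 for CAV1 and 0.0689 for CAV2 (edgeR), whereas a single fit of all 9 libraries gave CAV2 a log2 fold change of 1.41 (adjusted p = 0.0246) and CAV1 one of 1.45 (adjusted p = 0.22). An edgeR fit without the filter took these assumed pairs as a block. It gave CAV1 a log2 fold change of 1.44 (adjusted p = 1.54e-06) and CAV2 one of 1.40 (adjusted p = 0.109). Against the fit without the filter alone, the block made the adjusted p far smaller for PACSIN2 (3.36e-192) and CAVIN1 (1.46e-17), from edgeR. It made that of CAV2, EHD2, CAVIN2 and CAVIN3 larger, and the call of either caveolin depends on the fit. CAV3, the muscle caveolin, had 0 counts in every library.

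CAVIN1, the cavin that caveolae require, had the opposite distribution to the caveolins and was not detected in PC3 cells. PC3 libraries held 0, 0 and 0 counts on either strand. LNCaP libraries held 75, 97 and 63 counts with DHT and 130, 169 and 151 with vehicle. All DHT libraries were therefore below all vehicle libraries and all LNCaP libraries above PC3. Means were 3.77 ± 0.883 CPM (SD, n = 3) with DHT and 7.92 ± 1.25 (SD, n = 3) with vehicle. Set against 3 counts in each PC3 library, CAVIN1 was at least 30.8-fold lower in PC3 cells than with DHT and at least 64.7-fold lower than with vehicle. The second difference had an adjusted p of 4.31e-06 (edgeR), and the first was not tested, since CAVIN1 passed 3 CPM in all 3 DHT libraries only after scaling. Without the filter its adjusted p was 1.25e-06 (edgeR). CAVIN1 entered the comparison with vehicle through LNCaP cells alone, so the p-value there only describes it.

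CAVIN1 fell with DHT, with a log2 fold change of -1.07 (SE 0.17, adjusted p = 7.09e-05 from edgeR). This size lies close to the fold change of 2 that a call requires. It was -0.99 without DHT replicate 1, -0.96 without DHT replicate 3 and -0.94 without vehicle replicate 2, where the call was lost although the adjusted p stayed at or below 0.000456 in these fits.

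CAVIN2, which helps to bend the caveolar membrane, was near the limit of detection. It had 9, 7 and 2 counts in PC3 libraries, 1, 1 and 2 with DHT and 1, 0 and 0 with vehicle. The PC3 and DHT groups met at 2 counts. The ratio of PC3 cells was 3.81 against DHT (exact 95% interval 1.26 to 15.5) and 13.9 against vehicle (exact 95% interval 2.20 to 580). It did not pass the filter, without which it was called against vehicle (adjusted p = 0.0171 from edgeR) and not against DHT (adjusted p = 0.0548 from edgeR). CAVIN3, which binds protein kinase C delta, had 0 counts in 7 libraries and 1 in DHT replicate 3 and in vehicle replicate 1. Of its 74-nt stretches, 29.1% had a second match, in the genome or in another gene's transcripts, and for CAVIN2 the share was 5.57%. For CAV1, CAV2, CAVIN1, EHD2 and PACSIN2 it was at most 1.70%. Matches on either strand were included, and antisense long non-coding RNA genes overlap CAVIN3 and CAVIN2. How far second matches make the forward-strand counts of CAVIN3 and CAVIN2 uncertain is therefore not known.

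EHD2, the ATPase of the caveolar neck, was found in PC3 cells at a low level. PC3 libraries held 94, 69 and 107 counts, LNCaP libraries 0, 1 and 3 with DHT and 0, 0 and 0 with vehicle. No LNCaP library came near the PC3 range. The mean in PC3 cells was 3.64 ± 0.616 CPM (SD, n = 3). Against DHT, the count ratio was 57.2 (exact 95% interval 22.1 to 211) and the log2 fold change 5.71 (SE 0.45, adjusted p = 7.18e-06 from edgeR), which rested on 4 counts and was 6.98 without DHT replicate 3. Against vehicle, where EHD2 is set to 3 counts per library, PC3 cells were at least 23.04-fold higher (adjusted p = 1.66e-05 from edgeR). In both comparisons EHD2 passed the filter through PC3 cells alone, so these p-values only describe it. EHD2 was below the filter for the DHT response, with an adjusted p of 0.133 without the filter and 0.114 in a single fit of all 9 libraries (edgeR), and groups that overlapped at 0.

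PACSIN2, the F-BAR protein, was the only member with a level above 50 CPM in every library, and it was lowest in PC3 cells. PC3 libraries held 1412, 1475 and 1437 counts, which are 55.6, 64.1 and 56.8 CPM. LNCaP libraries stood at 296, 293 and 308 CPM with DHT and 146, 139 and 142 CPM with vehicle. The 3 groups did not overlap, with PC3 below vehicle and vehicle below DHT. The log2 fold change of PC3 cells was -2.34 against DHT (SE 0.08, adjusted p = 9.52e-08 from edgeR) and -1.25 against vehicle (SE 0.08, adjusted p = 1.99e-06 from edgeR). DHT raised PACSIN2 with a log2 fold change of 1.07 (SE 0.04, adjusted p = 4.27e-11 from edgeR), which stayed between 1.05 and 1.09 in all 16 alternatives. PACSIN2 overlaps ARFGAP3 on the same strand at its end, and 1.70% of its 74-nt stretches had a second match.

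The order of the members per length differed between the lines. In PC3 cells, levels per kb of merged exons were 122 ± 29.2 CPM for CAV1, 12.9 ± 1.02 for PACSIN2, 10.4 ± 0.371 for CAV2 and 0.947 ± 0.160 for EHD2 (SD, n = 3). PACSIN2 and CAV2 changed places with the MANE Select length, at 18.1 and 23.2 CPM per kb, so that their order is not settled. In LNCaP cells PACSIN2 was first, at 65.6 ± 1.79 CPM per kb with DHT and 31.2 ± 0.705 with vehicle (SD, n = 3). CAVIN1 came next, at 1.06 ± 0.247 and 2.22 ± 0.350 CPM per kb (SD, n = 3), and CAV1 followed at 0.432 ± 0.451 and 0.162 ± 0.206 (SD, n = 3). The library values of CAVIN1 and CAV1 overlapped with DHT and not with vehicle.

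Counted over the comparisons, 4 of the 8 members were tested between PC3 and DHT-treated LNCaP cells and 3 were called higher and 1 lower. A call requires a fold change of 2 or more with an adjusted p under 0.05, and in this comparison 46% of 12541 genes were called (24% higher and 22.1% lower). Between PC3 and vehicle-treated cells 5 members were tested, with 3 higher and 2 lower, where 43.2% of 12686 genes were called (22.2% higher and 21% lower). DHT raised 1 and lowered 1 of the 2 members tested, where 14% of 11697 genes were called (6.54% higher and 7.49% lower). CAV1, CAV2, EHD2 and CAVIN1 passed the filter on low values through one line alone and had to differ between the lines. These counts and the p-values between the lines therefore only describe them. By the adjusted p alone, 84%, 83.4% and 74.9% of genes passed in the 3 comparisons. The comparisons of PC3 cells share the PC3 libraries, and both DHT comparisons share the DHT libraries.

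**Figure D3:**
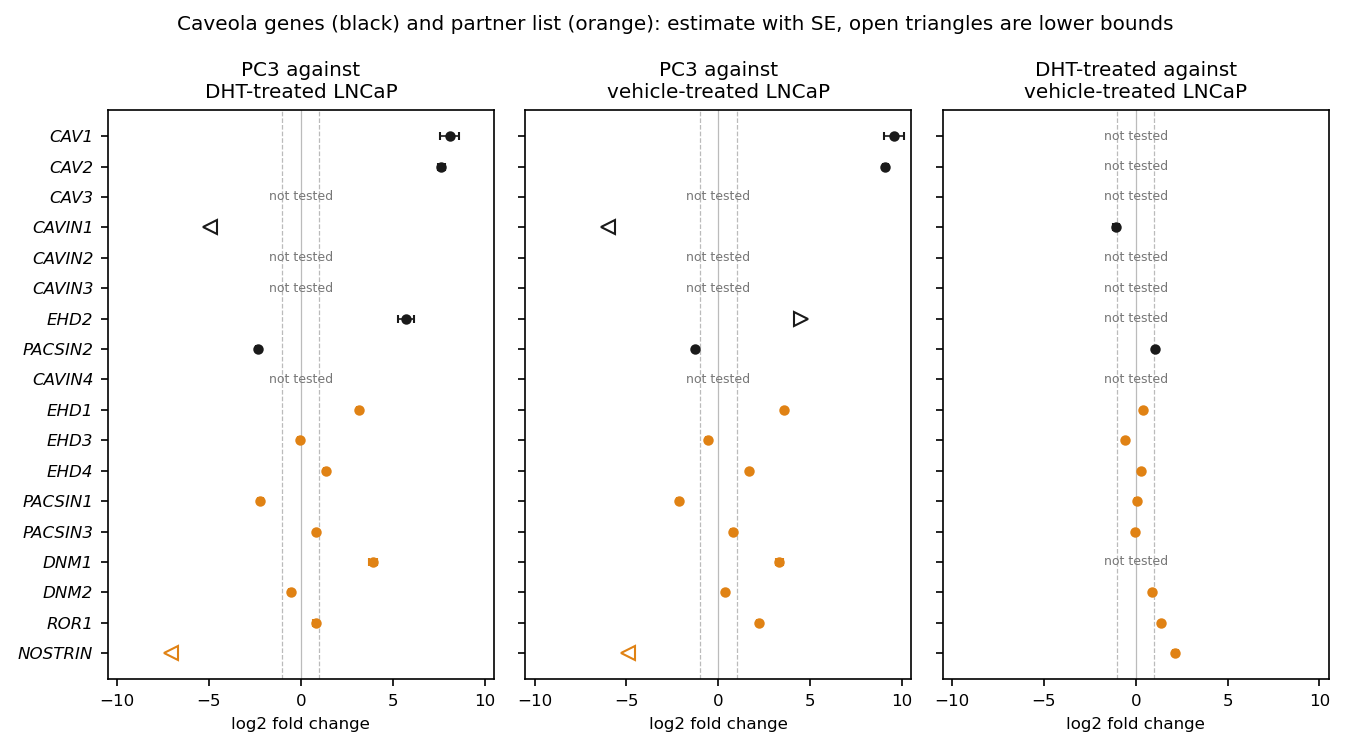
Log2 fold change of the 8 caveola genes (black) and of 10 related genes (orange) in the 3 comparisons, with the standard error (bars) from edgeR. Open triangles are lower bounds of the size where all libraries of a group were at 0, dashed lines mark a fold change of 2, and other genes below the filter are marked as not tested. CAVIN1 was below the filter between PC3 and DHT and is drawn there as its bound. CAV1, CAV2 and EHD2 lie to the right and PACSIN2 and CAVIN1 to the left in both comparisons of PC3 cells.

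The list of related genes held proteins that shape or assist caveolae and relatives of the members. Against DHT-treated cells, 3 of 9 tested genes were higher in PC3 cells and 2 lower, with a median log2 fold change of 0.80 beside 0.04 for all genes, and 46% of all genes were called there. Against vehicle-treated cells, 4 were higher and 2 lower (median 0.78 beside 0.03), where 43.2% of all genes were called. EHD1, a relative of EHD2 that acts in endosomal recycling, was at 245 ± 7.33 CPM in PC3 cells, 27.6 ± 2.57 with DHT and 20.9 ± 0.182 with vehicle (SD, n = 3), with log2 fold changes of PC3 cells of 3.15 and 3.58 (adjusted p = 5.19e-08 and 1.06e-08 from edgeR). DNM1, the neuronal dynamin that cuts vesicles from the membrane, had log2 fold changes of 3.93 and 3.33 (adjusted p = 5.6e-07 and 1.45e-06 from edgeR). DNM1, at 21.2 ± 3.75 CPM in PC3 cells, 1.40 ± 0.169 with DHT and 2.15 ± 0.321 with vehicle (SD, n = 3), passed the filter through PC3 cells alone, as EHD2 did, and had to differ, whereas EHD1 passed in every library.

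NOSTRIN, an F-BAR protein that binds endothelial nitric oxide synthase and caveolin-1, was distributed like CAVIN1 between the lines but not in its response to DHT. It had 0 counts in each PC3 library, 316, 320 and 369 with DHT and 65, 58 and 85 with vehicle. PC3 cells were at least 132-fold lower than DHT-treated and at least 29.7-fold lower than vehicle-treated cells. NOSTRIN passed the filter through LNCaP cells alone and had to differ between the lines, so its place among the calls there only describes it. DHT raised NOSTRIN with a log2 fold change of 2.15 (SE 0.14, adjusted p = 1.25e-08 from edgeR). PACSIN1, the neuronal relative of PACSIN2, was lower in PC3 cells by log2 fold changes of -2.20 and -2.13 against DHT and vehicle (adjusted p = 8.79e-07 and 9.48e-07 from edgeR). ROR1, a receptor that is known to hold caveolin-1 and cavin-1 together, rose with DHT by 1.40 (adjusted p = 3.2e-08 from edgeR). Only NOSTRIN and ROR1 were called with DHT among the 8 tested genes of the list, where 14% of 11697 genes were called. With so few genes, this count is no result about the list. CAVIN4, the muscle cavin, did not pass the filter, and held 73, 76 and 88 counts in PC3 libraries and 1 to 3 in LNCaP libraries, a ratio of 28.7 (exact 95% interval 13.7 to 72.1) against DHT and 26.2 (exact 95% interval 12.5 to 65.8) against vehicle. It was thus the cavin with the most counts in PC3 cells.

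Flotillins and their relatives build other membrane domains without caveolin. Of 9 genes, all tested against PC3 cells, 1 was higher and 3 were lower in PC3 cells than with DHT (median log2 fold change -0.57 beside 0.04 for all genes), and 1 was higher and 4 lower than with vehicle (median -0.57 beside 0.03). These counts, 4 and 5 of 9, lie near the 46% and 43.2% called over all genes. STOM, which encodes stomatin, was the one higher, with log2 fold changes of 5.48 and 5.77 (adjusted p = 4.9e-07 and 2.92e-07 from edgeR) and a level of 11.6 ± 1.62 CPM in PC3 cells (SD, n = 3). STOM had at most 0.358 CPM in LNCaP libraries and so passed the filter through PC3 cells alone, and its place among the calls only describes it. ERLIN2, a protein of lipid rafts in the endoplasmic reticulum, was lower by -1.92 against both groups. STOML1 was lower by -1.97 against DHT and -1.38 against vehicle. FLOT2, which encodes flotillin-2, was at 47.4 ± 3.34 CPM in PC3 cells, 123 ± 4.81 with DHT and 125 ± 2.22 with vehicle (SD, n = 3), with a log2 fold change of -1.37 against DHT. With DHT, 0 of 8 tested genes were called by edgeR and 0 by DESeq2, and 4 had an adjusted p under 0.05 with a fold change below 2 (STOML1 0.57, PHB2 -0.27, ERLIN1 -0.31 and PHB 0.16 on the log2 scale), as had 4 by the unadjusted p. Over all genes tested with DHT, edgeR called 14%, and 74.9% had an adjusted p under 0.05.

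Kinases of the SRC and ABL families phosphorylate caveolin-1, and 8 such kinases and adaptors were all tested between the lines. In PC3 cells 2 were higher and 1 lower than with DHT (median log2 fold change 0.40 beside 0.04 for all genes), and 3 were higher and 1 lower than with vehicle (median 0.54 beside 0.03). The 3 and 4 calls among 8 genes stand beside 46% and 43.2% called over all genes and are no result about these kinases. FYN had log2 fold changes of 5.52 and 3.39 (adjusted p = 1.76e-07 and 2.15e-06 from edgeR), from 34.6 ± 6.23 CPM in PC3 cells, 0.745 ± 0.174 with DHT and 3.36 ± 0.944 with vehicle (SD, n = 3). FYN passed the filter in both comparisons only because of the PC3 libraries, since neither LNCaP group had 3 libraries above 3 CPM. SRC was higher by 1.86 and 1.96, and LYN lower by -2.34 and -2.18. With DHT, 0 of 7 tested genes were called by edgeR and 0 by DESeq2, and 3 had an adjusted p under 0.05 with a fold change below 2 (YES1 0.35, CSK 0.26 and LYN 0.14 on the log2 scale), as had 3 by the unadjusted p. These counts stand beside 14% called and 74.9% with an adjusted p under 0.05 over all genes in that comparison. FYN was below the filter there, with 21, 14 and 12 counts with DHT and 60, 80 and 50 with vehicle.

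The genes that flank the caveolins on chromosome 7 were also higher in PC3 cells. TES, which encodes the focal adhesion protein testin and ends 28597 bases before the start of the annotated CAV2 gene, had log2 fold changes of 1.38 against DHT and 1.53 against vehicle (adjusted p = 3.8e-07 and 4.53e-07 from edgeR). MET, which encodes the hepatocyte growth factor receptor and starts 111017 bases after CAV1, had log2 fold changes of 8.93 and 7.67 (adjusted p = 1.16e-06 and 6.32e-08 from edgeR), from a level of 1055 ± 128 CPM in PC3 cells (SD, n = 3). MET passed the filter against DHT through PC3 cells alone. TES was expressed in LNCaP cells too, at 76.5 ± 1.57 CPM with DHT and 70.1 ± 4.91 with vehicle (SD, n = 3). MET held 99, 20 and 17 counts with DHT and 129, 66 and 105 with vehicle, and edgeR called it lower with DHT (log2 fold change -1.28, adjusted p = 0.017) whereas DESeq2 called neither neighbour.

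The genes whose levels over the 9 libraries were nearest to CAV1 were AXL, IGF2BP2, ANXA2, LGALS1 and FBN2, at Euclidean distances of 0.996, 1.06, 1.11, 1.12 and 1.13 in centred log2(CPM + 0.5) among 12842 genes. AXL, a receptor tyrosine kinase, had mean levels of 343 CPM in PC3 cells, 0.978 with DHT and 0.227 with vehicle. ANXA2, which encodes annexin A2, had 1062, 4.05 and 1.03 CPM in the same order. The 5 genes nearest to PACSIN2 were ZNF552, WSB2, RDH11, SAR1B and CERT1, at 0.258, 0.265, 0.280, 0.288 and 0.295. RDH11, a retinol dehydrogenase, had 259 CPM in PC3 cells, 1199 with DHT and 586 with vehicle, and CERT1, a ceramide transporter, had 32.2, 158 and 73.6 CPM. These distances describe likeness of level across 9 libraries of 3 groups.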

How the data were processed

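RNA was poly(A)-selected for 9 libraries, and reads of 74 nt were, according to the study's methods and processing notes, trimmed (cutadapt), aligned to GRCh38 (STAR), freed of PCR duplicates (UMI-tools) and mapped again. The authors deposited counts, whole numbers of reads per gene without normalization, and all 253944 values equal the forward-strand STAR counts. Between 20.3% and 25.4% of reads per library were not assigned to a gene. 0 columns were left out.

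Genes with more than 3 CPM in at least 3 libraries of a comparison were tested with edgeR 4.0.16 (R 4.3.3; TMM factors, quasi-likelihood F test, Benjamini-Hochberg adjustment over all genes), each comparison on its own 6 libraries. Calls required a fold change of 2 or more with an adjusted p under 0.05. The study's batch term was left out because its batches are not named. A group at 0 was set to 3 counts per library for bounds, and 95% intervals of count ratios are exact and conditional. Named from each list were the called genes, or the 3 with the largest change. CAVIN4, PACSIN1 and FLOT2 were named after their values were seen. The test was tested on simulated data.

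The members and lists were chosen with earlier results of these data known. Deviations from group means over 12171 genes correlated between same-numbered DHT and vehicle libraries with 0.18, 0.23 and 0.19. Between differently numbered DHT and vehicle libraries they correlated with -0.23 to 0.05. Differently numbered PC3 and DHT libraries reached 0.18, so values of this size do not establish pairs. The pairing of LNCaP libraries by number is therefore an assumption. Alternatives were DESeq2 1.42.0 (size factors, Wald test), the likelihood ratio test, the replicate block, no filter, adjusted p alone, unstranded counts, all 9 libraries in one fit and leaving out each library. The MANE Select length and the block without the filter were chosen after seeing the data.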

Additional observations from a re-analysis of the deposited data

Results flagged for a closer look

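The deposited gene table holds forward-strand reads only, and the reverse-strand column of the STAR output was not part of the comparisons. CAV1, which is overlapped by an antisense long non-coding RNA gene, had 47, 30 and 18 reverse-strand counts in PC3 replicates 1 to 3, which are 0.378%, 0.225% and 0.201% of its counts on both strands. Over all genes, 2.72% to 3.06% of the counts on genes of PC3 libraries lay on the reverse strand, more than for CAV1. In all 6 LNCaP libraries the reverse-strand count of CAV1 was 0, beside at most 82 forward counts. The source of these reads was not tested.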

How the results depend on the processing

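Among 11 log2 fold changes of members, 10 kept their direction and call in all 16 alternatives. CAVIN1 with DHT kept its direction and an adjusted p of at most 0.00196, and lost its call in 3 fits with 1 library left out. The number of members called with DHT then ranged from 1 to 2. Without the filter on low counts, 9147, 8713 and 2941 genes were called between PC3 and DHT, PC3 and vehicle, and DHT and vehicle, against 5773, 5485 and 1641, and 5, 6 and 2 members. No filter with the replicate block, chosen after seeing the data, called 8649, 8197 and 2818 genes and 5, 6 and 3 members, the third with DHT being CAV1. With the adjusted p alone, 10530, 10577 and 8763 genes were called. All 9 libraries in one fit called 5, 5 and 3 members, and unstranded counts 5, 5 and 2.

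With the replicate number as a block, 5756, 5495 and 1638 genes were called (5759, 5496 and 1637 with the likelihood ratio test), and the number of members stayed at 4, 5 and 2. With the filter, the block changed no call of a member. Deviations of same-numbered libraries correlated with -0.05, 0.04 and -0.17 between PC3 and DHT. Between PC3 and vehicle the values were 0.06, -0.17 and -0.02. These libraries share only a number, and differently numbered ones reached 0.18 and 0.15 in the 2 comparisons. Depth limits CAV3, CAVIN2, CAVIN3 and the caveolins in LNCaP cells.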
